A study of Homo sapiens with 2 samples.

Results

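The genes described here are 10 transcription factor genes of the B cell lineage, PAX5, EBF1, SPI1, SPIB, IRF4, IRF8, POU2AF1, POU2F2, IKZF1 and IKZF3. They were taken by gene name from the deposited table of long-read transcript models, and all 10 were found among the 16645 annotated genes with a read. RNA came from GM12878, an established human B-lymphoblastoid line whose B cells were immortalised with Epstein-Barr virus, and was read as native RNA on nanopores (kit SQK-RNA002, flow cell FLO-MIN106D). The series holds 1 group of 2 libraries, replicates 1 and 2, with no treatment, and the labels do not say whether they came from separate cultures. The comparisons therefore set the reads of 1 library against those of the other, and differences between these libraries may be technical. The p-values take each read as a unit and allow for counting error only, not for spread between libraries or cultures.

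Commitment of a lymphoid progenitor to the B lineage depends on EBF1 and PAX5, which switch on genes of the B cell receptor and repress genes of other lineages. The ETS factors PU.1, encoded by SPI1, and SPI-B, encoded by SPIB, bind many enhancers of B cells together with IRF4 or IRF8, which are recruited through composite sites. OCT2, encoded by POU2F2, binds octamer sites of immunoglobulin promoters and works with the coactivator OCA-B, encoded by POU2AF1. Ikaros (IKZF1) and Aiolos (IKZF3) are zinc finger proteins that bind DNA as dimers and regulate B cell maturation.

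Replicate 1 held 1360368 reads and replicate 2 held 1510998 reads, so that 1 read was worth 0.735 and 0.662 CPM (reads scaled to a library of 1000000). Because 1 RNA strand gives 1 read, CPM was not divided by length. Markers of B cells were present in both libraries for 6 of 6 genes, with summed levels of 9049 and 9397 CPM. T cell markers were limited to CD3E (3.68 and 10.6 CPM), with CD3D, CD3G, CD8A and CD4 at 0. Of the NK markers NKG7 was read at 25.7 and 24.5 CPM and KLRD1 with 0 and 1 read, while NCAM1 and GNLY were at 0. The 5 myeloid markers summed to 2.94 and 6.62 CPM, with LYZ and S100A8 at 0, and the 4 erythroid markers had 1 read in all, on HBA1. The plasma cell markers SDC1, PRDM1 and TNFRSF17 summed to 190 and 169 CPM. Most of this was TNFRSF17 (150 and 133 CPM), with SDC1 at 36.8 and 34.4 CPM and PRDM1 at 2.94 and 1.99 CPM.

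All 10 genes were read in both libraries, and their levels spanned a wide range; in RNA from a whole culture, fewer cells that express a gene and less RNA per cell cannot be told apart. Together they received 1405 reads in replicate 1 and 1387 in replicate 2, which is 1033 and 918 CPM (mean 975 ± 81.2, SD, n = 2). IRF4 and POU2AF1 took 52.7% of this sum, and EBF1, at the other end, lay 52.0-fold below IRF4 by mean level, 91.8-fold in replicate 1 and 33.6-fold in replicate 2. The median of the 10 mean levels was 70.4 CPM, against 8.23 CPM over all annotated genes with a read.

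The lineage-specifying factors PAX5 and EBF1 were low in this order. PAX5 (chromosome 9, positions 36833275 to 37034185, minus strand; all coordinates are GRCh38, GENCODE release 29) had 54 reads in replicate 1 and 70 in replicate 2, which is 39.7 and 46.3 CPM. EBF1 (chromosome 5, 158695916 to 159099761, minus strand) had 5 reads in replicate 1 and 12 in replicate 2. Its level was 3.68 CPM (exact 95% Poisson interval 1.19 to 8.58) in replicate 1 and 7.94 CPM (4.10 to 13.9) in replicate 2, intervals that overlap and that cover counting error only. EBF1 was thus the least read of the 10 genes in both libraries, at rank 9328 of all genes by mean level.

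The ETS factors differed from each other. SPIB (chromosome 19, 50418938 to 50431313, plus strand) was read at 77.2 and 83.4 CPM. SPI1 (chromosome 11, 47354860 to 47378576, minus strand) was read at 33.1 and 21.2 CPM, below SPIB in both libraries. The level of SPIB depends on how reads of an overlapping gene were assigned, as given with its transcript models.

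Of the interferon regulatory factors, which bind beside PU.1 or SPI-B, IRF4 was the highest of all 10 genes when all reads were counted. IRF4 (chromosome 6, 391739 to 411447, plus strand) had 459 reads in replicate 1 and 403 in replicate 2, which is 337 and 267 CPM (mean 302 ± 49.99, SD, n = 2), at rank 425 of all genes. IRF8 (chromosome 16, 85898803 to 85922609, plus strand) was read at 96.3 and 115 CPM (mean 106 ± 13.3), below IRF4 in both libraries.

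The octamer coactivator was far above its partner when all reads were counted. POU2AF1 (chromosome 11, 111352252 to 111455630, minus strand) had 329 and 275 reads, which is 242 and 182 CPM (mean 212 ± 42.3, SD, n = 2). POU2F2 (chromosome 19, 42086110 to 42196585, minus strand) had 34 and 40 reads, which is 24.99 and 26.5 CPM. POU2AF1 therefore had several times as many reads as POU2F2 in each library. Genomic models, described below, held 77.0% of the POU2AF1 reads and 71.6% of the POU2F2 reads, both libraries summed. Without them the levels in replicates 1 and 2 were 66.2 and 32.4 CPM for POU2AF1 and 5.88 and 8.60 CPM for POU2F2.

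Of the Ikaros family pair, Aiolos had more reads, nearly all of them in genomic models, which overlap the gene without matching its splicing. IKZF3 (chromosome 17, 39757715 to 39864188, minus strand) had 162 reads in each library, which is 119 and 107 CPM. IKZF1 (chromosome 7, 50304068 to 50405101, plus strand) had 81 and 93 reads, which is 59.5 and 61.5 CPM. Without genomic models the direction turned, with a mean of 0.698 CPM for IKZF3 and 4.52 CPM for IKZF1.

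In the order IRF4, POU2AF1, IKZF3, IRF8, SPIB, IKZF1, PAX5, SPI1, POU2F2, EBF1, the library values of neighbours overlapped for IKZF3 with IRF8 and for SPI1 with POU2F2, and for no other neighbours. This order rests on all reads of each gene. With genomic models left out, IRF4 (mean 301 CPM) was still first, followed by SPIB (64.2), POU2AF1 (49.3), SPI1 (27.1), IRF8 (21.6), POU2F2 (7.24), IKZF1 (4.52), PAX5 (2.17), EBF1 (1.36) and IKZF3 (0.698). With known models alone, POU2AF1 was first (28.5 CPM) and IRF4 (1.47 CPM) lay below SPIB (23.6), SPI1 (15.6), IRF8 (9.56) and IKZF1 (1.73).

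**Figure D1:**
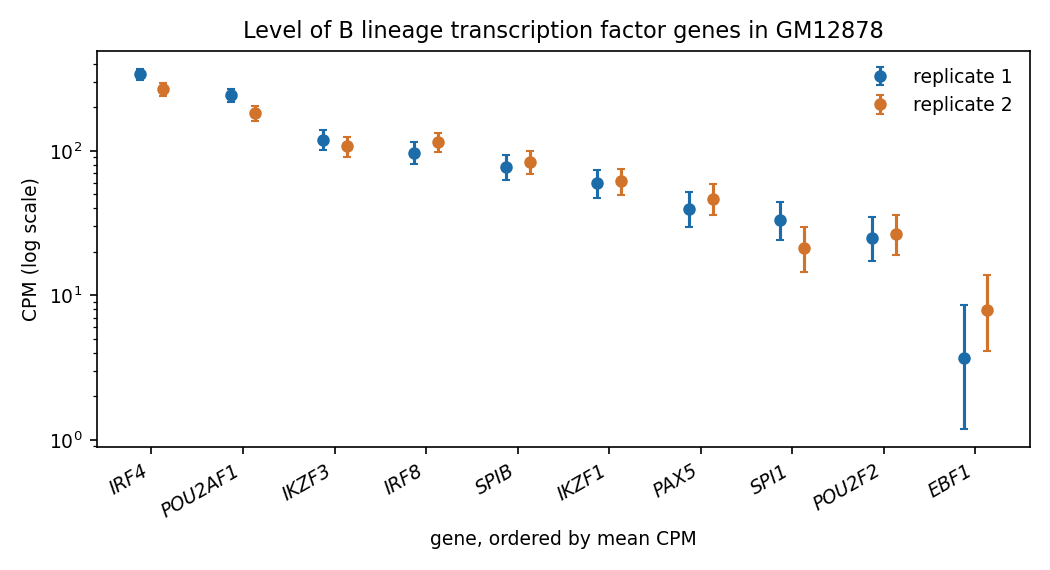
Level of each gene in CPM (log axis) in replicate 1 (blue) and replicate 2 (orange), with exact 95% Poisson intervals that cover counting error only. The genes run from IRF4 at 337 and 267 CPM down to EBF1 at 3.68 and 7.94 CPM, and replicate 2 is visibly lower for IRF4 and POU2AF1.

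Between the libraries, IRF4 and POU2AF1 were lower in replicate 2, and the other 8 genes did not pass the test. For each of 10634 genes with 10 reads or more, the reads of both libraries were set against the library totals in an exact binomial test (two-sided); p-values were adjusted by Benjamini-Hochberg, and genes under 0.05 were called. IRF4 fell by 0.34 on the log2 scale (adjusted p = 0.0161) and POU2AF1 fell by 0.41 (adjusted p = 0.0151). These 2 of 10 genes stand beside 5.05% called over all genes tested, of which 2.33% lower in replicate 2, and beside 32.8% called among the 652 genes with at least as many reads as POU2AF1. SPI1 had the largest negative log2 ratio, -0.64, but its 45 and 32 reads left it short of the threshold (adjusted p = 0.327). EBF1, with a log2 ratio of 1.03 on 17 reads in all, was not called either (adjusted p = 0.534). Over the 10 genes the median log2 ratio was 0.06, against 0.01 over all genes tested. The IRF4 call was lost (log2 ratio -0.26, adjusted p = 0.0823) when genomic models were left out and the remaining reads were used for scaling. POU2AF1 remained called in that setting, with a log2 ratio of -0.95 (adjusted p = 0.00416). With known models alone, scaled to their own reads, its ratio was -1.07 (adjusted p = 0.0138). Scaled to all reads, the ratios were -1.02 without genomic models and -1.36 with known models alone. The medians over all genes tested were then -0.15 and -0.55. In the scaled settings these medians were -0.08 without genomic models and -0.26 with known models alone, so a general shift remained.

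Most reads of these genes were in models without a splice junction. The table assigns each read to a transcript model and each model to a category: known (an annotated transcript), ISM (an incomplete splice match, which carries a stretch of an annotated transcript's exons), NIC (annotated splice sites in a combination that is not annotated), NNC (at least 1 splice site that is not annotated) or genomic (overlapping the gene without matching its splicing). Models with at least 2 exons held 260 of 1405 reads in replicate 1, 18.5% (Wilson 95% interval 16.6 to 20.6%), and 154 of 1387 in replicate 2, 11.1% (9.56 to 12.9%). Over all annotated genes the multi-exon share was 77.8% and 71.5%. Known models took 10.6% and 5.84% of the reads of the 10 genes, against 56.5% and 46.4% over all annotated genes. Genomic models took 47.9% and 54.1%, against 10.9% and 15.3%. Because IRF4 dominates these sums, the multi-exon share was also computed without it and was 24.1% and 14.9%. With genomic models listed at a length of 1 base left out, the share over the 10 genes was 22.3% and 13.5%.

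**Figure D2:**
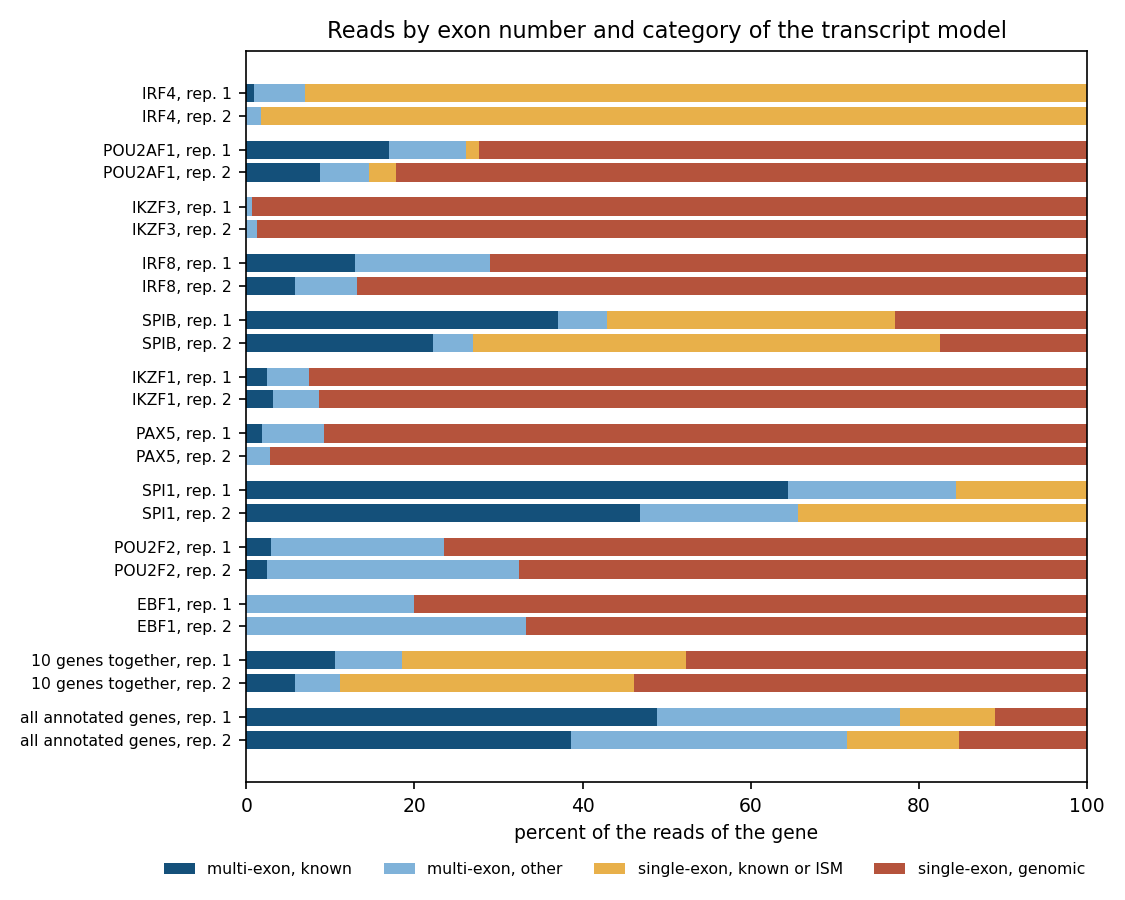
Percent of the reads of each gene, by library, in multi-exon known models, other multi-exon models, single-exon known or ISM models and single-exon genomic models, with the 10 genes together and all annotated genes at the bottom. SPI1 is mostly blue (multi-exon), IRF4 almost wholly yellow (single-exon ISM) and IKZF3 almost wholly red (single-exon genomic).

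The single-exon reads of a gene mostly shared 1 model. In IRF4 an ISM model of 3989 bases held 426 reads in replicate 1 and 395 in replicate 2, 95.2% of the gene, beside a terminal exon of 3993 bases in IRF4-201. In IKZF3 a genomic model of 1339 bases held 141 and 139 reads, 86.4% of the gene. The terminal exon of IKZF3-203 has 8779 bases, and whether this model lies in it is not known. In IRF8 a genomic model of 2386 bases held 93 and 151 reads, 80.0% of the gene. Its length equals the distance from position 85920224, the last base of exon 8, to the end of IRF8-201, a span that takes in the last intron and the last exon. The table gives lengths but no positions for models, so that equal lengths do not prove equal places.

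In POU2AF1 a genomic model listed at 1 base held 204 and 205 reads, 67.7% of the gene, and in PAX5 such a model held 36 and 44 reads, 64.5% of the gene. Models listed at 1 base held 17.2% and 18.0% of the reads of the 10 genes, against 0.218% and 0.266% over all annotated genes, and where their reads lie cannot be read from the table. IKZF1 had genomic models of 3132 bases with 46 reads in each library and of 1038 bases with 20 and 34 reads. POU2F2 had a genomic model of 308 bases with 18 reads in each library. EBF1 had a genomic model of 736 bases with 2 and 6 reads.

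Native RNA is read from its 3′ end, so the splice junction before the terminal exon comes first. That junction in the reference transcript is printed for 7 genes, 20 coding bases on each side with the terminal exon in capitals, because a read in a multi-exon model of the full transcript holds it and a read in the terminal exon alone does not. The genes run from IKZF3, with a terminal exon of 8779 bases, to SPI1, with 687 bases.
IKZF3-203 exon 7/8: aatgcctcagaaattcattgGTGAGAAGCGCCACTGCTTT
PAX5-201 exon 9/10: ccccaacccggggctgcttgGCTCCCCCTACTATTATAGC
IKZF1-221 exon 7/8: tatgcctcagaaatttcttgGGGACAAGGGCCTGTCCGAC
IRF4-201 exon 8/9: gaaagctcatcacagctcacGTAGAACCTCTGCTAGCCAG
POU2AF1-201 exon 4/5: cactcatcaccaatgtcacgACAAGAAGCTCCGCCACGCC
IRF8-201 exon 8/9: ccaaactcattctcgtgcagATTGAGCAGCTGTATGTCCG
SPI1-202 exon 4/5: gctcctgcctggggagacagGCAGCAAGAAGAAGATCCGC
The IKZF1 and IKZF3 junctions, from paralogous genes, were identical at 28 of 40 bases, with 17 of 20 identical before the junction and 11 of 20 after it. The exons end and begin at 36846843 and 36840636 in PAX5, 39777651 and 39766493 in IKZF3, 50391863 and 50399918 in IKZF1, 405130 and 407455 in IRF4, 85920224 and 85921106 in IRF8, 111357445 and 111354575 in POU2AF1, and 47358844 and 47355546 in SPI1.

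Across the 10 genes, with all reads counted, the share of reads with a junction varied with the length of the terminal exon, most of which is 3′ untranslated sequence. In PAX5, EBF1, IRF8, POU2F2, IKZF1 and IKZF3 all single-exon reads were in genomic models, and whether these lie in the terminal exon is not known. Without genomic models all remaining reads of these genes were in multi-exon models, so their shares would not differ. In SPI1, with the shortest terminal exon (687 bases in SPI1-202), 84.4% and 65.6% of the reads were in multi-exon models. In IRF8 (1504 bases) the share was 29.01% and 13.2%, and in POU2AF1 (2324 bases) 26.1% and 14.5%. In SPIB (3011 bases in SPIB-202) it was 42.9% and 26.98%, without the multi-exon reads listed under the overlapping gene AC020909.1, which is described below. On these counts all 3 lay below SPI1, and SPIB stood above IRF8 and POU2AF1 although its terminal exon is longer. The POU2AF1 model listed at 1 base, with 62.0% and 74.5% of the reads of the gene, counts here as having no junction. Where its reads lie is not known.

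Junction-spanning reads were rarer in 4 of the genes with still longer terminal exons. In IRF4 (3993 bases) the multi-exon share was 6.97% and 1.74%, in IKZF1 (5184 bases) 7.41% and 8.60%, in PAX5 (7362 bases) 9.26% and 2.86%, and in IKZF3 (8779 bases) 0.617% and 1.23%. POU2F2 (5482 bases) was higher than these, at 23.5% and 32.5%, on 8 and 13 reads, and in replicate 2 it also exceeded IRF8, POU2AF1 and SPIB. EBF1 (3223 bases) had 1 of 5 and 4 of 12 reads in multi-exon models.

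Genes in general showed the same gradient. Over 8160 genes with a reference transcript and at least 20 reads, Spearman's rho between terminal exon length and the multi-exon share was -0.65, and over the 9 of these genes that belong to the B lineage factors it was -0.67. These correlations are across genes that share both libraries, so they are given as descriptions. The median terminal exon was 3993 bases in the 9 genes and 1225 bases in all 8160. With both libraries summed, the median multi-exon share was 64.7% over all 8160, and 8 of the 9 genes lay under it. When the 8160 genes were divided into 4 bins by terminal exon length, the median share in the bin with the longest (2504 bases and more) was 31.9%. SPIB, with 34.2%, was above this median when placed by SPIB-202; by the 952-base terminal exon of SPIB-201, the length of its most-read model, it would fall in a bin with a median of 73.2% and below it. In the longest bin, POU2F2 (28.4%), IKZF1 (8.05%), PAX5 (5.65%), IRF4 (4.52%) and IKZF3 (0.926%) were below its median. IRF8 (61 of 305 reads) and POU2AF1 (20.9%) were below the median of their bin, 46.2%, and SPI1 (76.6%) was above that of its own, 73.2%. Of the 604 POU2AF1 reads, 409 were in the model listed at 1 base and 126 in multi-exon models. With the 1-base model left out, POU2AF1 would lie above the 46.2% of its bin.

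**Figure D3:**
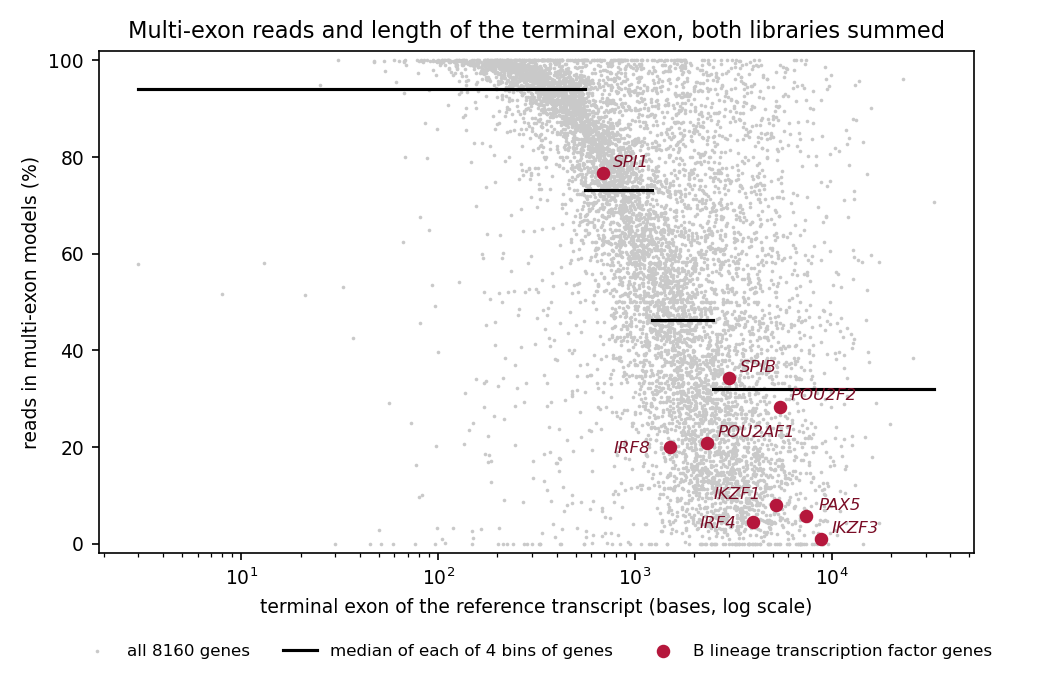
Percent of reads in multi-exon models, both libraries summed, against the length of the terminal exon of the reference transcript in bases (log axis); grey points are 8160 genes, black bars the median of each of 4 bins of genes, red points the B lineage factors with at least 20 reads. SPI1 sits among genes with short terminal exons at 76.6%, and IKZF3 at the long end at 0.926%.

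The multi-exon share was lower in replicate 2 for IRF4, IRF8 and POU2AF1. Shares were compared with a two-sided Fisher's exact test over 8898 genes with at least 20 reads, with Benjamini-Hochberg adjustment; this comparison was chosen after the data were seen. The adjusted p was 0.00349 for IRF4 (32 of 459 against 7 of 403 reads), 0.0104 for IRF8 (38 of 131 against 23 of 174) and 0.00805 for POU2AF1 (86 of 329 against 40 of 275). The 3 of 9 genes called stand beside 13.2% called over all genes, 13.2% also when only falls in replicate 2 are counted, and 42.0% among the 1332 genes with at least as many reads as IRF8. The median difference was -6.40 percentage points over the 9 genes and -7.23 over all genes tested. With genomic models left out, IRF4 remained called (adjusted p = 0.0164), while the calls of IRF8 (adjusted p = 1) and POU2AF1 (adjusted p = 0.314) were lost; all single-exon reads of IRF8 are in its genomic model. SPIB (adjusted p = 0.0787), SPI1 (0.237), PAX5 (0.548) and POU2F2 (0.788) were not called, nor were IKZF1 and IKZF3 (both 1).

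The share of known models passed the same test in POU2AF1 only, at 17.0% in replicate 1 and 8.73% in replicate 2 (adjusted p = 0.0246). This 1 of 9 genes stands beside 18.3% called over all genes (18.1% lower in replicate 2), and 68.6% among the genes with at least as many reads as POU2AF1. The call was lost among models with 2 or more exons (adjusted p = 0.978) and with genomic models left out (adjusted p = 0.4002). In SPIB the known share was 37.1% and 22.2% (adjusted p = 0.0693), and it was called with genomic models left out (adjusted p = 0.0257). It was 12.98% and 5.75% in IRF8 (adjusted p = 0.155) and 64.4% and 46.9% in SPI1 (adjusted p = 0.418).

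The level of IRF8 depended on which reads were counted. Outside genomic models its level was 27.9 and 15.2 CPM in replicates 1 and 2, for which the log2 ratio was -0.86 (adjusted p = 0.136), while the ratio over all its reads was 0.26 (adjusted p = 0.509). Neither ratio passed the threshold, and they have opposite signs. The 2386-base genomic model, the only genomic model of IRF8, was higher in replicate 2 and made up 71.0% and 86.8% of the reads of the gene.

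Reads with the full number of exons were mostly those of POU2AF1, SPIB and SPI1. Models with at least as many exons as the reference transcript held 99 reads of POU2AF1 in both libraries together, 66 of SPIB, 47 of SPI1, 28 of IRF8, 13 of IRF4 and 3 of PAX5. The SPIB reference, SPIB-202, has 5 exons, so its count includes ISM models of 5 exons. SPIB models of 6 exons, the number in SPIB-205, held 34 reads in replicate 1 and 26 in replicate 2. POU2F2, IKZF1 and IKZF3 had 1 such read each, and EBF1, whose reference has 16 exons, had none among 17 reads, too few to show that such reads are absent. The single IKZF3 read was in an NNC model of 8 exons.

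**Figure D4:**
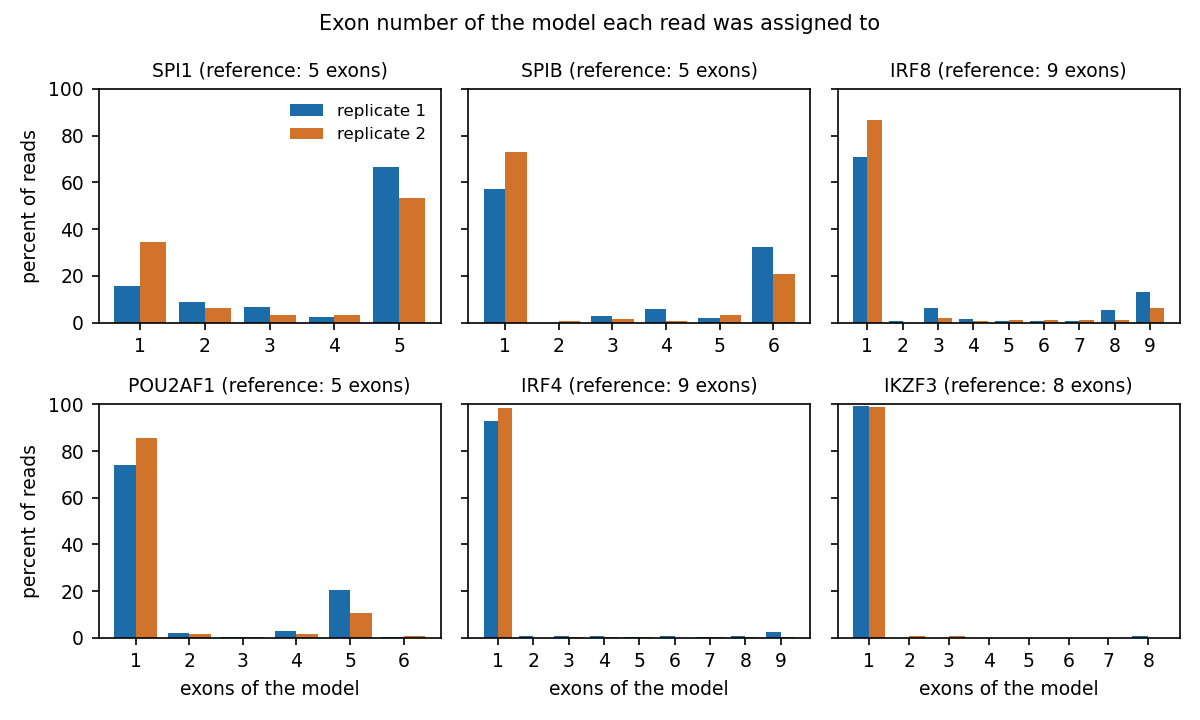
Percent of the reads of SPI1, SPIB, IRF8, POU2AF1, IRF4 and IKZF3 by the number of exons of their model, in replicate 1 (blue) and replicate 2 (orange). Apart from reads at 1 exon, those of SPI1 and POU2AF1 are mostly at 5 exons and those of SPIB at 6, in IRF4 and IRF8 the remaining reads spread over 2 to 9 exons, and the bar at 1 exon is lowest in SPI1 (15.6% and 34.4%) and highest in IKZF3 (99.4% and 98.8%).

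Known models of the 10 genes were few, 16 of 127 annotated transcripts with 149 and 81 reads. In SPI1 the known reads were divided between transcripts that differ at the start of exon 2. SPI1-202 had 15 reads in replicate 1 and 10 in replicate 2, and SPI1-201 had 14 and 5. Exon 1 ends at position 47378309 of chromosome 11 in both, and exon 2 begins at 47375732 in SPI1-201 and at 47375729 in SPI1-202, on the minus strand. The coding junctions are shown with exon 2 in capitals, since they mark the only difference in coding sequence.
SPI1-201 exon 1/2: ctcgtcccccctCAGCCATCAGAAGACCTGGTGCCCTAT
SPI1-202 exon 1/2: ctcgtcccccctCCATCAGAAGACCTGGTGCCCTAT
The coding sequences have 816 and 813 bases and are otherwise identical. SPI1-202 held 51.7% and 66.7% of the known reads of SPI1, a difference that did not pass Fisher's exact test (adjusted p = 0.917). How reliably nanopore reads separate acceptors 3 bases apart was not tested.

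In SPIB the most-read known model was SPIB-205, with 33 reads in replicate 1 and 25 in replicate 2, which includes exon 4 (chromosome 19, 50422823 to 50423037, 215 bases). SPIB-202, which joins exon 3 to the next exon without it, had 1 and 2 reads. The junctions are shown with the downstream exon in capitals; the line for SPIB-202 has the left side of the first and the right side of the second.
SPIB-205 exon 3/4: cagagggggctcctgACTCCCTGTGGGACT
SPIB-205 exon 4/5: aacttcgctagccagACCCTGGTTCCCCCG
SPIB-202 exon 3/5: cagagggggctcctgACCCTGGTTCCCCCG
The annotated coding sequences have 789 bases in SPIB-205 and 516 in SPIB-202. Of the other SPIB transcripts, SPIB-203, annotated as a retained intron, had 4 and 0 reads and SPIB-207 had 1 and 1. SPIB-205 held 84.6% and 89.3% of the known reads of the gene (adjusted p = 1). In IRF8, IRF8-201 held 16 of 17 and 10 of 10 known reads (adjusted p = 1). None of these 3 genes was called in the test of the most-read known model, where 7.56% of 3054 genes were, and none had an unadjusted p under 0.05.

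The transcripts of SPIB overlap another gene on the same strand. AC020909.1, annotated as protein coding (chromosome 19, 50415799 to 50428409), shares 839 of the 4281 exonic bases of SPIB, 19.6%, and was listed with 76 and 69 reads. Of these, 34 and 47 reads were in 3 models whose lengths, 1103, 1318 and 1391 bases, equal the last 2, 3 and 4 exons of SPIB, taken as the internal exons of SPIB-205 with the 952-base terminal exon of SPIB-201. A single-exon ISM model of 952 bases was listed under SPIB with 36 and 70 reads. With all reads of AC020909.1 added, the level of SPIB would be 133 and 129 CPM (mean 131) in place of 77.2 and 83.4 (mean 80.3), above IKZF3 and IRF8 in the order of mean levels, so the split of reads between these genes is uncertain. No other gene that overlaps one of the 10 had more than 2 reads in all.

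POU2AF1 had the most known reads of the 10 genes over both libraries together, 80 against 67 for SPIB, though SPIB had more in replicate 2 (28 against 24). The 56 and 24 reads of POU2AF1 were in the single transcript POU2AF1-201 with 5 exons and 3295 bases. The remaining genes had almost none. IRF4-201 had 4 reads in replicate 1 and 0 in replicate 2, and PAX5-201 had 1 and 0. IKZF1-223 had 1 and 2, and POU2F2-202 had 1 and 0. No known model was read for EBF1 (0 of 17 reads, which allows a share of up to 17.6%) or IKZF3 (0 of 324 reads, up to 0.926%).

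Models with new combinations of splice sites or new splice sites were thinly read. NIC models held 10 and 6 reads and NNC models 29 and 17 reads. The NNC model with the most support was a POU2AF1 model of 5 exons and 899 bases, with 6 and 3 reads, followed by an IRF4 model of 9 exons and 1898 bases with 3 and 1. An IRF8 model of 4 exons and 819 bases and a POU2AF1 model of 5 exons and 1061 bases followed with 1 read in each library. The only NIC model in both libraries was a POU2AF1 model of 5 exons and 1657 bases, with 1 read in each. NIC models of IKZF1 (5 exons) and IRF4 (9 exons, 5299 bases) had 2 and 0 reads. Of the 173 models of the 10 genes, 58 were read in both libraries, 33.5% (Wilson 95% interval 26.9 to 40.9%), against 29.9% of all models in annotated genes, and 101 rested on a single read.

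The close relatives of the 10 genes were read in part. Of 28 paralogs, 15 were read in both libraries and 13 had no read, for which 3 reads set upper limits of 2.21 and 1.99 CPM in the libraries. Among the paired box genes only PAX8 was read besides PAX5 (4 and 5 reads), and EBF2, EBF3, EBF4 and SPIC had no read. IRF7, an interferon regulatory factor of the antiviral response, was the highest at 97.0 and 153 CPM (mean 125 ± 39.5, SD, n = 2) and rose in replicate 2 by 0.65 on the log2 scale (adjusted p = 0.00124). No other of the 13 tested paralogs was called, and this 1 call stands beside 5.05% called over all genes tested. IRF5 (mean 82.6 CPM) and IRF3 (81.5 CPM) followed, and none of the relatives exceeded IRF4.

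Of 19 other regulators of B cell development and the germinal centre, 16 were read in both libraries. ID3, an inhibitor of E proteins, was the highest (mean 286 CPM), followed by the E protein gene TCF3 (177 CPM) and by RUNX3 (156 CPM). Only ID2, with 9 reads in replicate 1 and 31 in replicate 2, was called among the 15 tested (adjusted p = 0.0324), beside 5.05% called over all genes. BACH2 had no read, BCL6 had 0 and 2 and PRDM1 had 4 and 3.

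Genes known as targets of these factors in B cells were mostly well read. Of 20 such genes, 15 were read in both libraries, led by FCER2, the low-affinity IgE receptor (mean 719 CPM), CD79A, a signalling chain of the B cell receptor (684 CPM), and MS4A1, which encodes CD20 (270 CPM). RAG2, IGLL1, VPREB1 and DNTT, which act in early B cell precursors, had no read, and RAG1 had 0 and 1. Of the 14 tested, CR2, the complement receptor CD21, rose in replicate 2 from 45 to 100 reads (log2 ratio 0.99, adjusted p = 0.00322). FCER2 fell by 0.20 on the log2 scale (adjusted p = 0.0392). These 2 of 14 stand beside 5.05% called over all genes tested. FCER2 is also among the 652 genes with at least as many reads as POU2AF1, of which 32.8% were called.

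Factors that define other lineages were mostly unread. Of 20 such genes, 11 had no read, among them GATA1, CEBPA and TAL1, and 6 were read in both libraries. TCF7, a T cell factor, was the exception at 109 and 92.0 CPM (mean 100), followed by ZBTB7B (29.5 CPM) and TBX21 (8.01 CPM). None of the 5 tested was called. TCF7 thus lay close to IRF8 in this line, and of the 5 T cell markers CD3E was read (5 and 16 reads) and CD3D, CD3G, CD4 and CD8A were at 0.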

How the data were processed

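Direct RNA libraries of GM12878 were analysed from the table that the authors deposited, which holds raw read counts per transcript model for 2 replicates, with the exon number and length of each model. The name of the table points to TALON, and minimap2 and hg38 are listed in the submitters' processing notes; versions, filters and the annotation release are not given in the sources used here. All 23533 known models matched GENCODE release 29 in identifier, length and exon number, so positions and sequences came from that release (GRCh38).

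Counts were summed over all models of a gene and divided by the library total (CPM). Log2 ratios are replicate 2 over replicate 1 after adding 0.5 reads. Levels were tested with the exact binomial test (at least 10 reads) and shares with Fisher's exact test (at least 20 reads), with scipy 1.17.1. Both were adjusted over all genes by Benjamini-Hochberg at 0.05. Both recovered planted changes in simulated libraries that held counting error alone. The real libraries differed by more than counting error, with a chi-square per gene of 3.27 over 10634 genes. The simulation therefore cannot show how often calls made here are false. Wilson and Poisson intervals (95%) cover counting error only. The reference transcript is the principal coding transcript of the annotation. edgeR 4.0.16 (TMM) and DESeq2 1.42.0 served for alternative scalings alone.

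The 10 genes and the lists of related genes, regulators, targets and markers were chosen with earlier results of these data known. By rule, the text names all 10 genes, the most-read known model of each, the NIC and NNC models (3 each) best supported in their weaker library, and of each list the 3 highest genes, a lowest one and those called. The multi-exon share, the terminal exon comparison, the scaling to the reads counted and the addition of AC020909.1 reads were chosen after seeing the data, as were other names. 1 gene of these lists is not reported here. No protein sequence was used here.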

Additional observations from a re-analysis of the deposited data

How the results depend on the processing

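No paired analysis was possible because both libraries belong to the same group. POU2AF1 remained lower in replicate 2 under every alternative run for its level, with adjusted p from 0.000663 to 0.0236 and log2 ratios from -1.36 (known models alone) to -0.41. For level, 2 of 10 genes tested were called, beside 5.05% over all genes. With known models alone it was 1 of 4 in either scaling, where IRF4 had too few reads to be tested. Over all genes 30.4% were then called, and 18.8% when scaled to known-model reads. With genomic models left out and scaled, it was 1 of 7, beside 8.27%. For the known share, 1 of 9 genes was called, beside 18.3% over all genes. Among models with 2 or more exons it was 0 of 6 tested, beside 14.9%. With a minimum of 50 reads it was 2 of 9 (POU2AF1 and SPIB), beside 28.3%. For the most-read known model, 0 of 3 genes were called, beside 7.56% over all genes. When ISM, NIC and NNC models were included, it was 2 of 6 (IRF4 and SPIB), beside 19.9%. The most-read models of IRF4 and SPIB were then single-exon ISM models. For the multi-exon share, 3 of 9 genes were called, beside 13.2%, and without genomic models 1 of 6 (IRF4), beside 4.78%. The summed level of 975 CPM was 81.6 CPM with known models alone and 480 CPM without genomic models, and lay between 918 and 1033 in the single libraries. The mean known share of 8.22% was 16.5% without genomic models and 55.0% among models with 2 or more exons (5.84 to 10.6% in the single libraries). The mean multi-exon share of 14.8% was 29.3% without genomic models (11.1 to 18.5% in the single libraries). Models read in both libraries numbered 34 at 2 reads, 20 at 5 reads and 34 without genomic models, in place of 58. The log2 ratio changed sign in SPIB (-0.62 with known models alone, -0.34 with these scaled to their own reads) and in IRF8 (-0.89 and -0.60 likewise, -0.86 without genomic models and -0.79 with those scaled); none of these passed the threshold, and the cause was not tested. Over all genes, level calls numbered 537 of 10634, 1681 of 5528 with known models alone (median log2 ratio -0.55; 156 higher and 1525 lower, against 289 and 248), 1042 when these were scaled to their own reads, and 827 of 8758 without genomic models (median -0.15; 220 higher and 607 lower). Calls for the known share numbered 1631, and 927 among models with 2 or more exons. For the most-read known model they numbered 231, and 1341 of 6741 with ISM, NIC and NNC models included, single-exon models among them. For the multi-exon share they numbered 1175, and 340 of 7118 without genomic models. Depth limits EBF1 most, with 17 reads in all.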
